A study of Mesocricetus auratus with 10 samples.

Results

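The mitochondrial ribosomal protein genes were taken as all array genes whose name begins with MRPL or MRPS followed by a number, and 73 such genes were found among the 13827 named genes tested. By name 45 belonged to the large (MRPL) and 28 to the small (MRPS) subunit. MRPS30 and MRPS18A sit in the large subunit of the ribosome but are counted here as small, by name. The animals were male golden hamsters (Mesocricetus auratus), and the tissue was whole liver. Each of the 10 animals on the high fat diet (HFD) was compared with 1 common pool, made from the livers of 10 hamsters fed a standard diet (STD), on 2 custom Agilent arrays in opposite dye orientation, giving 20 arrays. The labels give neither the age, the strain, the make-up of the diets nor their length. Since all STD livers were pooled, the spread between STD animals was not measured, and each value is the log2 ratio of HFD over STD pool, tested against 0. Which RNA carried which dye, and with it the direction of all ratios, was read from the array names.

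Mitochondria keep a ribosome of their own, which translates the few messenger RNAs of mitochondrial DNA into core subunits of the respiratory chain and of ATP synthase. All of its proteins are encoded in the nucleus, made on cytosolic ribosomes and imported, while its ribosomal RNAs come from mitochondrial DNA. The small subunit binds and decodes the messenger RNA, and the large subunit joins amino acids and holds the tunnel through which the nascent chain leaves. About the bacterial core it carries many proteins that bacteria lack. The liver is rich in mitochondria, which there burn fatty acids and house part of the urea cycle.

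In animals 5 to 10, the array on which Cy3 marked the HFD RNA gave ratios unlike those of the other 14 arrays, as described further on. Counts of members by subunit, class and strand of the brightest probe are therefore given with and without these 6 arrays, as are those of the mitochondrial lists. Counts over all probes, and the shares of all genes by strand, rest on all 20 arrays. Of the 73 members, 16 were called higher and 30 lower in HFD liver (limma, Benjamini-Hochberg adjusted over all 13827 genes, threshold 0.05), and 27 were not called. Among all named genes 31.4% were higher and 28.9% lower, against 21.9% and 41.1% of the members. Without the 6 arrays 10 members were higher and 13 lower, 13.7% and 17.8%, against 24.9% and 18.3% of all genes. That fit held a dye term, so the Cy3 arrays of animals 1 to 4 weighed about as much as the 10 arrays in Cy5. The 10 arrays with HFD RNA in Cy5, which also leave out the 6, gave 14 members higher and 27 lower when fitted alone. Of all genes 29.5% and 22.3% were then higher and lower. The changes were small: the largest was -0.49 on the log2 scale, and no member passed 0.5 in size. By the authors' deposited log2 ratios, 4 members passed 0.5, led by MRPL32 at -0.63, and in the scanner's processed signals 7 did, led by MRPL32 at -0.69. In the values used here the median size was 0.12 against 0.11 over all genes. All 10 animals had the same sign for 27 members, 37% of them against 31.5% of all genes, and each of these 27 was called. All 73 members were well above background in at least 19 of 20 arrays for HFD RNA and in 20 of 20 for the pool. In bulk liver RNA, fewer cells of a type and less RNA per cell cannot be told apart.

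**Figure D1:**
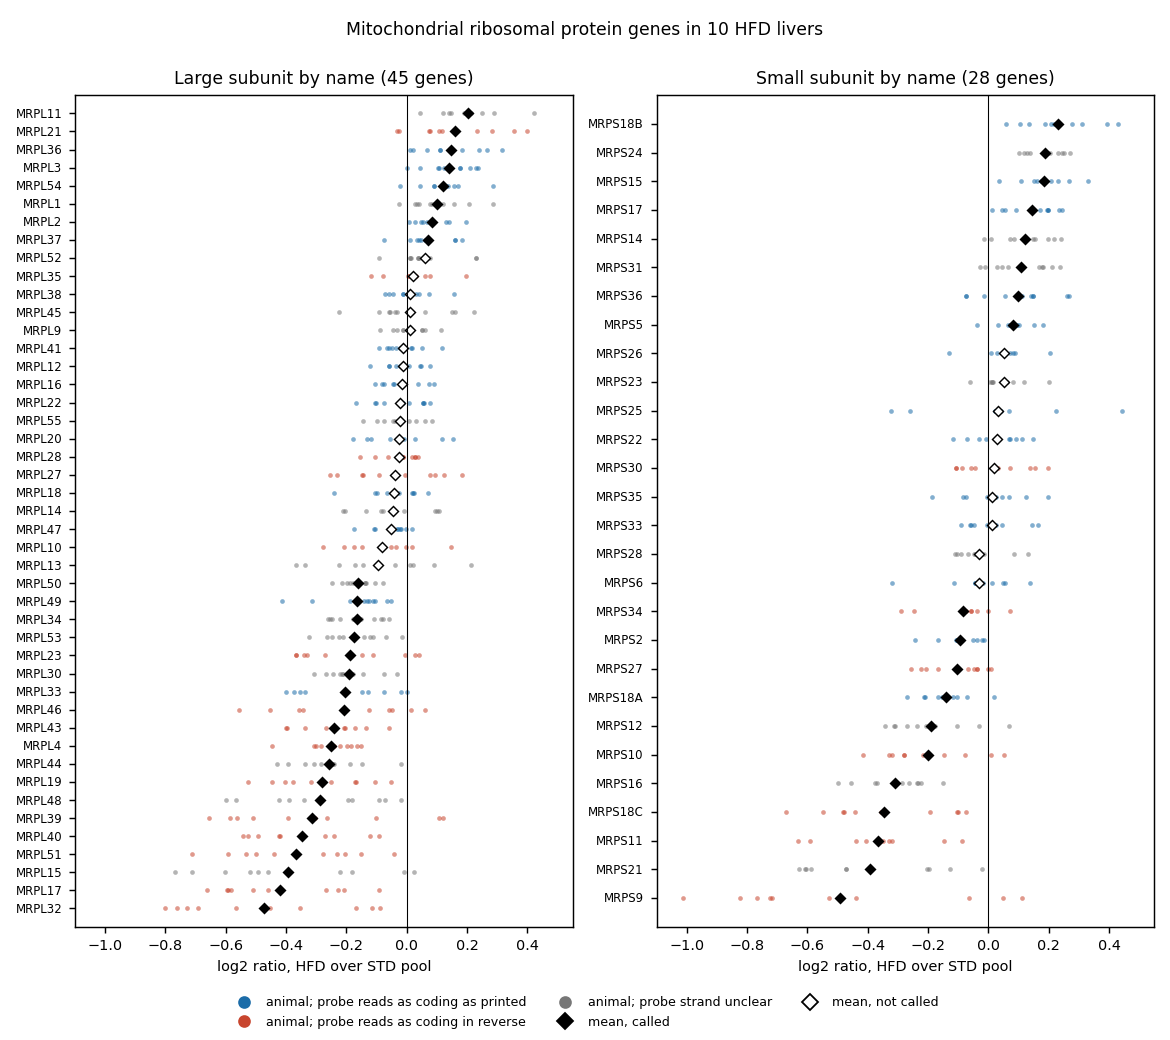
Log2 ratio of HFD over STD pool (x axis) for each member (rows, ordered by mean), large subunit left and small subunit right. Dots are the 10 animals, each the mean of 2 dye-swapped arrays, coloured by the strand in which the gene's probe reads as coding; diamonds are means, filled where called. The 11 members below -0.3 carry 8 probes that read in reverse and 3 of unclear strand, and none that reads as printed.

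The members' probes did not all lie on the same strand. The array's 60-base probes were designed on assembled hamster transcripts, and some of these run in the opposite direction to the messenger RNA. The strand that reads as coding was therefore estimated for each transcript from codon use, learned on the 67053 named probes. Among 12958 pairs of probes of 1 transcript that both gave a reading, 89.6% had the same one. No protein sequences were at hand to check the readings, and they were made after the ratios had been seen. A plain feature that bears on strand is the stop triplet. The following brightest probes, printed as deposited, are the 10 that are closed by stop triplets in all 3 frames of 1 strand. They are open in at least 1 frame of the other, and are shown because the rule can be followed by eye. For the first 6 the capitals mark the first stop triplet of each frame in the printed strand (TAA, TAG or TGA).
MRPL17: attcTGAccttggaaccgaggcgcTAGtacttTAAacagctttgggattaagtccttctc
MRPS10: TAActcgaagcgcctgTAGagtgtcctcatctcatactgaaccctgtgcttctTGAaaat
MRPL27: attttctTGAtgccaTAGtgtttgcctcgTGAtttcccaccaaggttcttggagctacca
MRPL35: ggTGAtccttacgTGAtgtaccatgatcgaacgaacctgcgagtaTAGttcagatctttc
MRPS30: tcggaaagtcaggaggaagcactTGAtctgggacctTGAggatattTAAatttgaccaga
MRPL46: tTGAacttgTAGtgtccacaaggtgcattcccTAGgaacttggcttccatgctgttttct

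For MRPL3, MRPL37, MRPS36 and MRPL20 it is the reverse strand that is closed, and the capitals mark the stop triplets as they appear on the printed strand (TTA, CTA or TCA).
MRPL3: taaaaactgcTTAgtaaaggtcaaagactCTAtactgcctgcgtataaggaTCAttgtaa
MRPL37: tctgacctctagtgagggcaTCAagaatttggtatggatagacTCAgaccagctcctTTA
MRPS36: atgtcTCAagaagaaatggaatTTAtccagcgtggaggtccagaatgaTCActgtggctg
MRPL20: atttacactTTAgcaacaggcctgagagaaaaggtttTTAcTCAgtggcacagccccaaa
By stop triplets alone 4 members read as printed, of which 3 were higher (MRPL3, MRPL37 and MRPS36) and none lower, and 6 read in reverse, of which none was higher and 3 lower (MRPL17, MRPS10 and MRPL46). The other 63 were open or closed in both strands.

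With codon use summed over each transcript, 28 members had a brightest probe that read as printed, 22 one that read in reverse and 23 one of unclear strand. Of the 28 as printed, 10 were higher and 4 lower, with a median log2 ratio of 0.01. Of the 22 in reverse, 1 was higher (MRPL21) and 16 lower, with a median of -0.23. MRPL35 and MRPS30 were among these 22 and were not called. Their reading is less sure, since the codon score also drops any frame with a stop triplet. In both, a frame of the printed strand is closed only close to its end. Their log2 signals were 12.1 and 12.85. Of the 23 unclear, 5 were higher and 10 lower, with a median of -0.05. On the other 14 arrays the 28 held 8 higher and 1 lower, the 22 none higher and 6 lower, and the 23 held 2 higher and 6 lower. For MRPL33 the brightest probe alone read in reverse and the transcript, through its other probe, as printed; it was the 1 member with such a conflict. The same direction was seen over the whole array: of 5777 genes with a brightest probe read as printed 38.9% were higher and 23.4% lower, of 5736 unclear 29.8% and 28.3%, and of 2314 read in reverse 16.5% and 44.1%. Probes read in reverse made up 30.1% of the members' brightest probes and 16.7% of those of all genes tested.

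**Figure D2:**
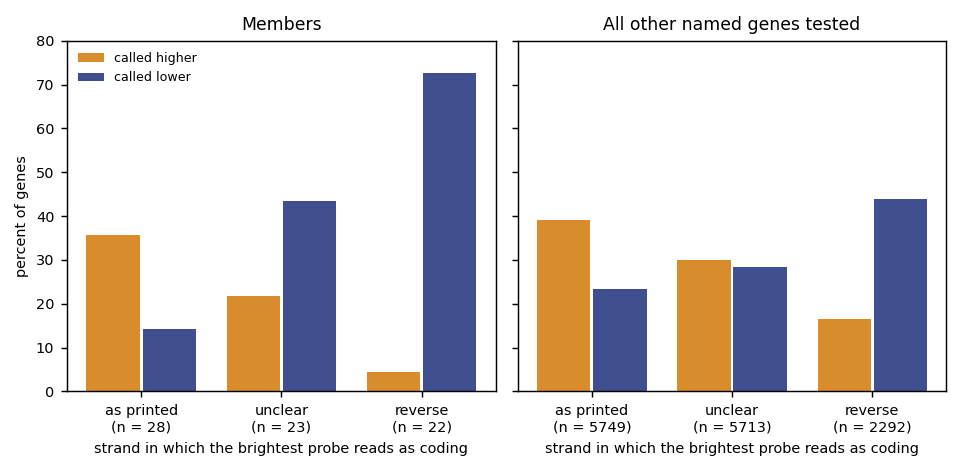
Percent of genes called higher (orange) and lower (blue) in HFD liver (y axis), by the strand in which the brightest probe reads as coding (x axis), for the members (left) and all other named genes tested (right). Lower calls made up 14.3% of the members read as printed and 72.7% of those read in reverse.

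MRPL41, a large subunit protein that bacteria lack, was measured on both strands. Its probes came from 2 assembled transcripts and overlapped in reverse complement, so that both strands of the same stretch of sequence were on the array. The 2 pairs are shown because they set the strands of 1 gene side by side; within each pair the capitals of the second line are the reverse complement of the capitals of the first, over 31 and 30 bases.
MRPL41 pair 1 as printed: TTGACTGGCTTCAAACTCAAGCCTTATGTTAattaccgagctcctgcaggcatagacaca
MRPL41 pair 1 in reverse: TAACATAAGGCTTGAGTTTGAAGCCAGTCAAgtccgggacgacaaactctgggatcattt
MRPL41 pair 2 as printed: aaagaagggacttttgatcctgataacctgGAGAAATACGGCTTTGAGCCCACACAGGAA
MRPL41 pair 2 in reverse: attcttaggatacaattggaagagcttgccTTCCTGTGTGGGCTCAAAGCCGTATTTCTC
The probes of the transcript read as printed gave log2 ratios of 0.001 ± 0.060 and -0.02 ± 0.05 (SD, n = 10), and the brightest probe of the gene, on the same transcript, gave -0.01 ± 0.06; none was called. The probes of the transcript read in reverse gave -0.31 ± 0.20 and -0.50 ± 0.19 and were both lower (limma adjusted p = 0.00027 and 3.9e-06 over all named probes). The log2 signals of the pairs were 11.3 and 8.45, and 12.5 and 8.36; a signal depends on the probe and is not a transcript level. MRPL41 was thus not called by its brightest probe and lower by those on the other strand.

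MRPS18B, which is among the 3 mitochondrial relatives of a single bacterial protein, had a like pair that shared 55 bases in reverse complement and is shown because its strands moved apart.
MRPS18B higher: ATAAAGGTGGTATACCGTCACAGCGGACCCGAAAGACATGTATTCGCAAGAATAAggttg
MRPS18B not called: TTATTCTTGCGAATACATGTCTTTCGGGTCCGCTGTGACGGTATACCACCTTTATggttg
The first, from a transcript read as printed, gave 0.23 ± 0.12 and was higher in all 10 animals (limma adjusted p = 0.00014 over all named probes). The second, from a transcript of unclear strand, gave -0.12 ± 0.22 and was not called (adjusted p = 0.11). A further probe of the first transcript was higher at 0.18 ± 0.12, and a further probe of the second was lower at -0.12 ± 0.16. MRPS25 was the other member with readings in both directions, and there the order was opposite: 2 probes as printed averaged 0.02 with neither called, and 1 in reverse was higher at 0.11.

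Over all 195 tested probes of the members, of 87 probes read as printed 26 were higher and 14 lower, and of 60 read in reverse 2 were higher and 50 lower; of all named probes on the array, 40.6% and 19.1% were higher and lower where read as printed, and 10.6% and 52.5% where read in reverse. Probes read in reverse were also dimmer, with a median log2 signal of 8.18 against 10.1 for the members' probes read as printed. The part of strand, and of brightness, in the lower calls was not tested.

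**Figure D3:**
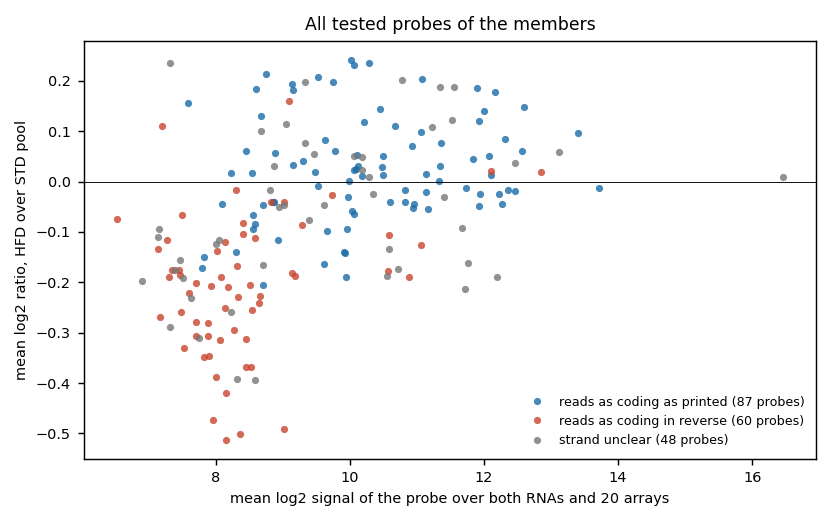
Mean log2 ratio of HFD over STD pool (y axis) against mean log2 signal over both RNAs and 20 arrays (x axis) for the 195 tested probes of the members, coloured by the strand in which their transcript reads as coding. Of the 60 probes read in reverse 50 were called lower, at a median log2 signal of 8.18; the probe at the far right, at 16.5, is that of MRPL9.

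The members of the large subunit that rose most were, in order, MRPL11, MRPL21, MRPL36, MRPL3, MRPL54 and MRPL1. MRPL11 helps form the base of the stalk on which translation factors dock. It lay between 0.05 and 0.42 with a median of 0.19, above 0 in all 10 animals, and its mean was 0.20 ± 0.10 (SD, n = 10; limma adjusted p = 0.00016). Its further probe was higher by as much, at 0.20. MRPL3, a homologue of a bacterial protein near the catalytic centre, lay between 0.001 and 0.24 with a mean of 0.14 ± 0.08 (adjusted p = 0.00067). It was above 0 in all 10 animals, and its 4 further probes were all higher, with a median of 0.21. MRPL36, a homologue of a very small bacterial protein, was above 0 in all 10 animals at 0.15 ± 0.10. MRPL54, which bacteria lack and which sits by the stalk, stood at 0.12 ± 0.08 and was above 0 in 9 of 10 animals. MRPL1, the homologue of the protein of the mobile stalk by which spent transfer RNA leaves, stood at 0.10 ± 0.09 and had no further probe; without the 6 arrays it was not called, at 0.05 (adjusted p = 0.33). MRPL21 was higher at 0.16 ± 0.15 by its brightest probe and lower by its other, at -0.27 ± 0.12, so that the mean of its probes was -0.05 and was not called (adjusted p = 0.070), as was its brightest probe without the 6 arrays, at 0.10 (adjusted p = 0.0997). The 2 other large subunit members called higher were MRPL2 at 0.08, which lost its call without the 6 arrays, and MRPL37 at 0.07.

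The lowest of the large subunit were MRPL32, MRPL17, MRPL15, MRPL51, MRPL40 and MRPL39. MRPL32, a homologue of a bacterial protein that a mitochondrial inner membrane protease matures after import, lay between -0.80 and -0.09 with a median of -0.51. It was below 0 in all 10 animals, with a mean of -0.47 ± 0.28 (limma adjusted p = 0.00014). It was still lower without the 6 arrays, at -0.23 (adjusted p = 0.0070), as were MRPL17 at -0.18 and MRPL51 at -0.15. MRPL17, which lies by the exit tunnel, lay between -0.66 and -0.09 with a median of -0.48 and a mean of -0.42 ± 0.20 (adjusted p = 3.2e-05). Its values fell into separate ranges: animals 1 to 4 lay between -0.27 and -0.09, and animals 5 to 10 between -0.66 and -0.46. MRPL15, MRPL51, MRPL40 and MRPL39 stood at -0.39 ± 0.28, -0.37 ± 0.22, -0.35 ± 0.16 and -0.31 ± 0.28; MRPL51 and MRPL40 were below 0 in all 10 animals, MRPL15 in 9 and MRPL39 in 8. Of these 6, MRPL15 had a probe of unclear strand and the other 5 a probe read in reverse. The remaining 13 lower large subunit members ranged down from MRPL50 at -0.16 to MRPL48 at -0.29.

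Some lower members had transcripts that did not read in reverse. MRPL50 had the smallest spread of all members, with values between -0.25 and -0.08 and a mean of -0.16 ± 0.05 (limma adjusted p = 4.9e-05). MRPL30, at -0.19 ± 0.09, was below 0 in all 10 animals too, and its further probe was lower at -0.21. MRPL49 was read as printed and lower at -0.16 ± 0.11, in all 10 animals. MRPL33, whose brightest probe alone read in reverse, was lower at -0.20 ± 0.15, though its mean was 0.002 on the arrays with HFD RNA in Cy5 and -0.41 on those with HFD RNA in Cy3, and it was not called without the 6 arrays. MRPL50, MRPL30, MRPL49 and MRPL33 were picked after their values had been seen.

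In the small subunit the highest were MRPS18B, MRPS24, MRPS15, MRPS17, MRPS14 and MRPS31. MRPS24, in the head of the subunit, lay between 0.10 and 0.27 with a median of 0.20 and had a mean of 0.19 ± 0.06 (limma adjusted p = 2.5e-05). All 10 animals were above 0, and its further probe was higher at 0.19. MRPS15 is a homologue of a bacterial protein that binds ribosomal RNA early in assembly. It lay between 0.03 and 0.33 with a mean of 0.18 ± 0.08 (limma adjusted p = 9.9e-05). Its 1 tested further probe was not called, at 0.06. MRPS17, another homologue of a bacterial protein, was higher at 0.14 ± 0.08 in all 10 animals, and both of its further probes were higher. MRPS14 and MRPS31 stood at 0.12 ± 0.09 and 0.11 ± 0.10, above 0 in 9 and 8 animals. Without the 6 arrays neither was called, at 0.07 and 0.03 (limma adjusted p = 0.087 and 0.54). The 2 further probes of MRPS14 were not called either, at 0.02 and 0.03. MRPS36 and MRPS5 were also higher, at 0.10 and 0.08. MRPS5 was called in opposite directions by the dye orientations, lower at -0.12 with HFD RNA in Cy5 and higher at 0.28 with it in Cy3, and was not called without the 6 arrays. MRPS36 stood at 0.22 and -0.03 in the same order; current annotation counts MRPS36 as a subunit of a dehydrogenase complex and not as a ribosomal protein.

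On 20 arrays MRPS9 was the lowest of all members and the most scattered. In the fit without the 6 arrays MRPS9 was not called, at -0.09 (limma adjusted p = 0.21), and MRPL32 was the lowest. On the arrays with HFD RNA in Cy5 alone, MRPS9 was called lower at -0.28 (limma adjusted p = 0.0010). Over 20 arrays MRPS9 lay between -1.01 and 0.11 with a median of -0.62, and its mean was -0.49 ± 0.40 (limma adjusted p = 0.0013). It was below 0 in 8 of 10 animals: animals 5 to 10 lay between -1.01 and -0.53, animal 1 at -0.44, and animals 2 to 4 between -0.06 and 0.11. MRPS21, MRPS11, MRPS18C, MRPS16 and MRPS10 followed at -0.39 ± 0.23, -0.37 ± 0.17, -0.35 ± 0.21, -0.31 ± 0.11 and -0.20 ± 0.15; all but MRPS10, which was below 0 in 8 animals, were below 0 in all 10. Of these 6, MRPS21 and MRPS16 had probes of unclear strand and the other 4 probes read in reverse. The remaining lower small subunit members were MRPS12, MRPS18A, MRPS27, MRPS2 and MRPS34, between -0.19 and -0.09. MRPS27 was lower at -0.10 ± 0.10 by its brightest probe, read in reverse, and higher at 0.23 ± 0.13 by a probe of another transcript.

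The 27 members not called lay between -0.09 and 0.06. They were 18 of the large and 9 of the small subunit, and include MRPL12, MRPL13 and MRPL45. MRPL9, a homologue of a bacterial protein, stood at 0.009 ± 0.060 by a probe that is shown because it shares sequence with other transcripts. Its capitals mark the span from the first to the last base shared, in runs of 25 to 31 bases, with 8 probes of other names. The runs lie on either strand, and probes of CHRM1 and DENND5B are among the 8. Each run covers the earlier or the later part of the span, and not every base of it is shared.
MRPL9: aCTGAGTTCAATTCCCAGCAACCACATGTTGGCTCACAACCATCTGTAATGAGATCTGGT
Its log2 signal was 16.5, and its further 2 probes, on another assembled transcript, were both lower, at -0.10 ± 0.13 and -0.08 ± 0.08.

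The large and the small subunit were compared within each animal by the median over their members. The large subunit median was -0.09 ± 0.07 (SD, n = 10) and lay below 0 in 9 of 10 animals, and the small subunit median was -0.01 ± 0.05 and lay above 0 in 3. The median of the small subunit members' mean ratios was 0.01, of the opposite sign. The large subunit median was the lower of both in all 10 animals, by -0.08 ± 0.05, from -0.03 in animal 3 to -0.19 in animal 9. The median of all genes was 0.006, close to 0. Among the large subunit 8 members were higher, 19 lower and 18 not called, and among the small 8, 11 and 9, beside 31.4% higher and 28.9% lower of all genes. Without the 6 arrays, which left 24.9% of all genes higher and 18.3% lower, the large subunit held 5 higher and 11 lower and the small 5 higher and 2 lower. A score over the members was given no test. With only probes read as printed, 18 large and 13 small subunit genes were left; the medians were 0.0004 ± 0.041 and 0.05 ± 0.05, and the large was still the lower in all 10 animals, by -0.05.

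**Figure D4:**
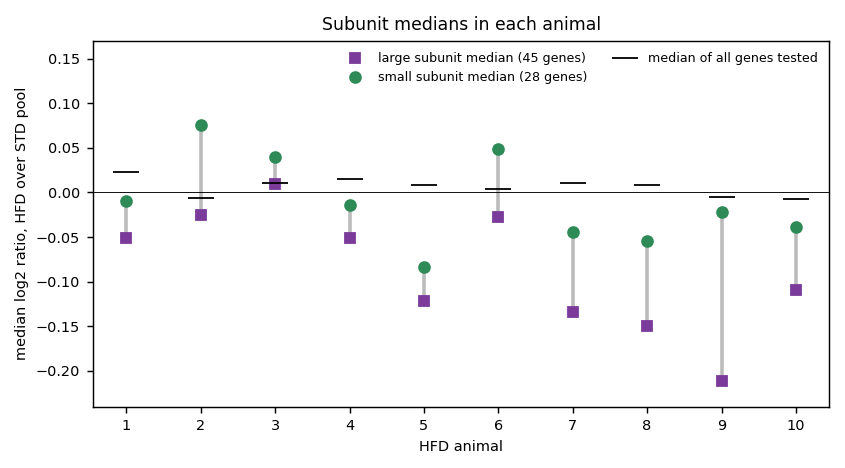
Median log2 ratio of HFD over STD pool (y axis) over the 45 large (squares) and 28 small (circles) subunit members in each of the 10 HFD animals (x axis), with the median of all genes tested (bars). The square lies below the circle in every animal, most in animal 9.

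By origin as listed, the 44 members with a bacterial homologue held 11 higher and 17 lower, and the 28 without one held 4 higher and 13 lower. MRPS36 was in neither class. MRPS18A (lower) and MRPS18B (higher) were listed without a homologue, though they are relatives of a bacterial protein. The large subunit proteins that bacteria lack were 16, with 2 higher, 10 lower and a median of -0.17, and the large subunit proteins with a bacterial homologue were 29, with 6 higher, 9 lower and a median of -0.04. In the small subunit the order was opposite: the 15 with a homologue had a median of -0.09 with 5 higher and 8 lower. The 12 listed without one, MRPS18A and MRPS18B among them, had a median of 0.02 with 2 higher and 3 lower. On the other 14 arrays the members with a homologue held 6 higher and 7 lower and those without one 3 and 6; in the large subunit the proteins that bacteria lack held 2 higher and 6 lower with a median of -0.07, and those with a homologue 3 and 5 with a median of -0.01. All counts by origin and place stand beside 31.4% higher and 28.9% lower of all genes, and 24.9% and 18.3% on the other 14 arrays. By place, the 5 proteins of the factor-binding stalk held 2 higher (MRPL11 and MRPL54) and 1 lower (MRPL53, at -0.17). The 5 measured proteins of the exit tunnel held none higher and 2 lower, MRPL17 and MRPL23. The 9 of the central protuberance, where both subunits touch, held none higher and 4 lower, namely MRPL33, MRPL40, MRPL46 and MRPL48. The 7 measured proteins of the small subunit head held 3 higher (MRPS24, MRPS14 and MRPS31) and 2 lower (MRPS9 and MRPS10). On the other 14 arrays the stalk kept the same 3 calls, MRPL17 was the 1 call of the exit tunnel, the central protuberance held none, and MRPS24 was the 1 call of the head.

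The 2 dye orientations did not give the same ratio for many members. Between the 10 arrays with HFD RNA in Cy5 and the 10 with it in Cy3, 20 members had opposite signs, 3 of them called (MRPL33, MRPS5 and MRPS36), and the median gap was 0.10. MRPL9 stood at 0.38 and -0.36, MRPL40 at -0.02 and -0.68, MRPS21 at -0.08 and -0.70, and MRPL51 at -0.13 and -0.61. In each orientation alone, 14 members were higher and 27 lower with HFD RNA in Cy5, and 15 and 32 with it in Cy3, beside 29.5% and 22.3%, and 30.8% and 32.3%, of all genes. A set of 6 arrays, those of animals 5 to 10 in which Cy3 marked the HFD RNA, differed from the other 14: across genes they correlated with each other at a mean r of 0.88, with the others at 0.515, and the others among themselves at 0.624. On these 6 arrays the members read in reverse had a median of -0.47, against -0.08 on the other 14, while those read as printed had 0.02 and 0.03. In the means of both arrays, the median over the members read in reverse lay between -0.13 and -0.02 in animals 1 to 4 and between -0.42 and -0.21 in animals 5 to 10.

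**Figure D5:**
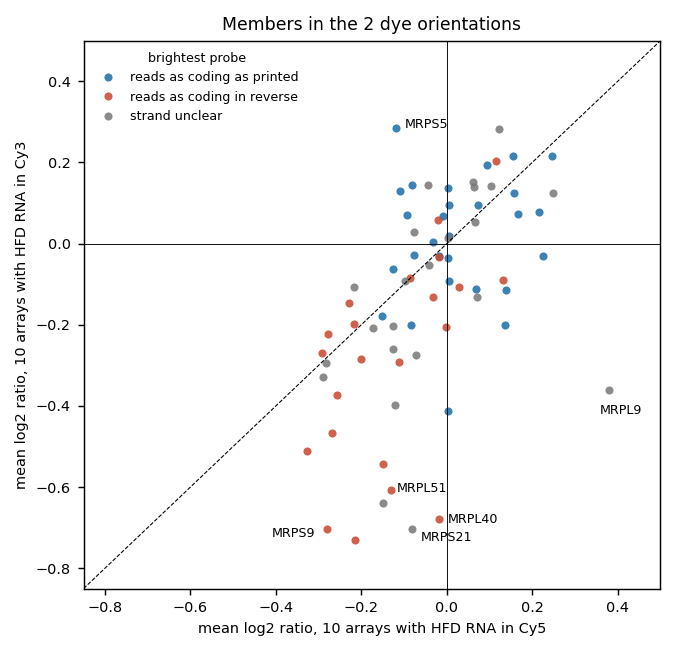
Mean log2 ratio of each member on the 10 arrays with HFD RNA in Cy5 (x axis) and on the 10 with HFD RNA in Cy3 (y axis); the dashed line marks equal values, and colours give the strand in which the brightest probe reads as coding. Many red points lie below the line, with MRPL40 at -0.02 and -0.68, and MRPL9 lies far off it at 0.38 and -0.36.

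The 10 higher and 13 lower members found without the 6 arrays were all among the 16 and 30 called on 20 arrays. Of the 16 lower members read in reverse 6 were still called, and of the 10 higher members read as printed 8. The difference between the subunits was -0.035 and was below 0 in 9 of 10 animals. MRPS9 moved to -0.09, MRPL15 to -0.09, MRPL39 to -0.03 and MRPS10 to -0.02, none of them called, as were MRPL40, MRPS21 and MRPS18C at -0.11, -0.10 and -0.11. In all, 17 of the 30 lower and 6 of the 16 higher members lost their call in this fit. On the arrays with HFD RNA in Cy5 alone, MRPS9, MRPL39 and MRPS10 were called lower, at -0.28, -0.26 and -0.11. MRPL15 and MRPS18C were lower there too, both at -0.15, while MRPL40 and MRPS21 were not called. The members called in the same direction on all 20 arrays, in each orientation alone and without the 6 arrays were 6 higher and 12 lower, beside 14.9% and 11.6% of all genes. The 6 higher were MRPL11, MRPL3, MRPS15, MRPS17, MRPS18B and MRPS24. The 12 lower were MRPL17, MRPL30, MRPL32, MRPL34, MRPL4, MRPL43, MRPL44, MRPL49, MRPL50, MRPL51, MRPS11 and MRPS16, of which 6 were read in reverse, 5 were unclear and 1, MRPL49, was read as printed.

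Of the 40 called members with further probes, 33 had at least 1 called in the same direction. At least 1 was called in the opposite direction for 4 members (MRPL21, MRPS18B, MRPS27 and MRPS5), 10% against 22.9% of all called genes with further probes. With only probes read as printed, 31 members could be measured, of which 10 were higher and 5 lower, where 38.2% of 7717 genes were higher and 22.8% lower. The 5 lower were MRPL33, MRPL49, MRPS18A, MRPS2 and, by another probe than its brightest, MRPL9. The MRPL33 probe alone read in reverse and counts here only by the reading of its transcript. Leaving out the probes read in reverse and keeping the unclear left 52 members, 16 higher and 14 lower, beside 34.3% and 26% of 12382 genes. The arrays were scanned in 3 sessions. Session 1 alone, with 1 array of each animal, gave 10 members higher and 26 lower (28.3% and 24.5% of all genes). Session 3 alone, with no array of animal 7 and so fewer arrays, gave 9 and 22 (19.8% and 17.1%).

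The other genes of mitochondrial protein synthesis held calls in both directions; the counts stand beside 31.4% higher and 28.9% lower of all genes on 20 arrays, and 24.9% and 18.3% without the 6 arrays. Of 7 ribosomal proteins with other names 1 was higher and 2 were lower, and 1 and 2 without the 6 arrays. The higher gene without the 6 arrays was DAP3, which was not called on 20 arrays. ICT1, which frees stalled ribosomes, was higher at 0.08 ± 0.07, but stood at -0.03 on the arrays with HFD RNA in Cy5 and was not called without the 6 arrays; AURKAIP1 of the small and GADD45GIP1 of the large subunit were lower at -0.23 ± 0.07 and -0.16 ± 0.06, in all 10 animals each. Of 10 translation factors 5 were higher and 2 lower, and 4 and none without the 6 arrays. GFM1, the elongation factor that moves the ribosome along, was higher at 0.47 ± 0.11 (limma adjusted p = 1.9e-07), and MTRF1L, a release factor, at 0.21 ± 0.10. The recycling factor MRRF and the initiation factor MTIF2 were lower at -0.11 ± 0.09 and -0.07 ± 0.07, and neither was called without the 6 arrays. Of 18 mitochondrial aminoacyl-tRNA synthetases 9 were higher and 3 lower, and 9 and 2 without the 6 arrays, 8 and 2 of them in both. FARS2 stood at 0.30 ± 0.10, EARS2 at -0.18 ± 0.12 and PARS2 at -0.15 ± 0.08. LARS2, which charges transfer RNA with leucine, was higher at 0.62 ± 0.27 by its brightest probe (0.37 without the 6 arrays) and by 11 of its 12 tested probes, while 1 probe of another transcript, read as printed, was lower at -1.25.

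Of 25 assembly and ribosomal RNA factors 2 were higher and 10 lower, and 3 and 4 without the 6 arrays, 2 and 3 of them in both. The RNA-binding protein FASTKD2 and the helicase DHX30 were higher at 0.23 ± 0.13 and 0.10 ± 0.11. The GTPases MTG1 and GTPBP10, which act on the maturing large subunit, were lower at -0.70 ± 0.30 and -0.54 ± 0.27 in all 10 animals, each by a probe read in reverse; without the 6 arrays they were lower at -0.45 and -0.23. FASTKD2 moved to 0.12. Of 10 transcription and messenger RNA factors 3 were higher and 3 lower, and 2 and 2 without the 6 arrays. LRPPRC, which stabilises mitochondrial messengers, and the poly(A) polymerase MTPAP were higher at 0.27 ± 0.08 and 0.17 ± 0.06, the second at 0.10 without the 6 arrays. The mitochondrial RNA polymerase POLRMT was lower at -0.39 ± 0.09 in all 10 animals by a probe read as printed, and MTERF, a transcription termination factor, at -0.30 ± 0.18, but not without the 6 arrays. Of 9 regulators of mitochondrial genes 4 were higher and 2 lower, and 3 and 1 without the 6 arrays, 2 and 1 of them in both. NRF1, which drives many nuclear genes for mitochondrial proteins, stood at 0.35 ± 0.17, its coactivator PPARGC1A at 0.22 ± 0.24, MYC at -0.85 ± 0.62 and YY1 at -0.07 ± 0.07. MYC had a probe read in reverse. PPARGC1A and YY1 were not called without the 6 arrays, and NRF1 moved to 0.21. The genes of mitochondrial DNA, and with them the ribosomal RNAs of this ribosome, were not analysed here.

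Set beside the members, respiratory chain subunits (73 genes by name) held 19 higher and 37 lower with a median of -0.10, and cytosolic ribosomal proteins (78 genes) held 2 higher and 58 lower with a median of -0.18. On the other 14 arrays the respiratory chain held 19 higher and 15 lower with a median of 0.003. The cytosolic ribosomal proteins held 2 and 55 there, with a median of -0.16. These groups share the same arrays and pool, and no difference between groups was tested. All counts of this paragraph stand beside 31.4% higher and 28.9% lower of all genes on 20 arrays, and 24.9% and 18.3% on the other 14. Markers of liver cell types were counted in the same way. Of 9 measured hepatocyte markers 7 were lower and none higher, with an animal median of -0.40 ± 0.14; all were well above background on all 20 arrays, with ALB at -0.23 and FGB at -1.17. Of 7 macrophage and Kupffer cell markers 5 were higher and 2 lower, with an animal median of 0.58 ± 0.26. Of 6 stellate cell markers 2 were higher and 2 lower, and of 5 endothelial markers 3 and 1. No marker was higher among 3 cholangiocyte, 5 lymphocyte and 4 adipocyte markers, of which none, 4 and 2 were lower, and of 4 muscle markers 1 was higher and 1 lower. Leaving out the 6 arrays gave 6 hepatocyte markers lower, and 5 macrophage markers higher and 2 lower. The part of cell composition in the members' ratios was not tested.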

How the data were processed

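Members and gene lists were chosen with earlier results of these data known. Per the file headers, the deposited spot intensities (mean signal and median background, green and red) came from Agilent Feature Extraction 10.7.3.1; the processed signals it had dye-normalised are an alternative here. A table of the authors' deposited log2 ratios, made with limma by the submitters' processing notes, served as another; its background correction, normalisation and centring are not stated in these sources. Per animal they correlated with the ratios below at r between 0.92 and 0.973, with slopes between 0.999 and 1.39. Per the labels' protocols, 100 ng of RNA was labelled with a whole-transcript kit. No spot was saturated, and 77.2% to 97.7% of probes per array were well above background in HFD RNA; the number of arrays limits precision.

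Intensities were corrected by normexp (offset 50) and loess in limma 3.58.1 (R 4.3.3), both arrays of an animal were turned to HFD over pool and averaged, and lmFit and eBayes tested 10 animals against 0. Tests were two-sided. Probes well above background in either RNA on at least 10 of 20 arrays and measured on all were kept; the brightest stood for its gene. Dixon's rule flagged single animals. The test was tried on simulated data. Of the 73 names, 71 occur in the RefSeq annotation of BCM_Maur_2.0, which was used for names only. Named with values were the 6 highest and 6 lowest called members of each subunit, members with 1 animal far off, and the 2 highest and 2 lowest called genes of each list; MRPL41, MRPL9, MRPS25, MRPS27 and others given outside this rule were picked after their values were seen.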

Additional observations from a re-analysis of the deposited data

Results flagged for a closer look

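Animal 9 lay far from the others for 1 member and for the difference between the subunits. MRPL4, a homologue of a bacterial large subunit protein, was lower at -0.25 ± 0.09 (SD, n = 10; limma adjusted p = 1.1e-05), below 0 in all 10 animals, and stood at -0.447 in animal 9, a gap to the nearest animal of 0.477 of the whole range, beyond Dixon's critical value for 10 samples. The median of the large minus that of the small subunit members was -0.189 in animal 9, a gap of 0.558 of the range; without animal 9 the difference was -0.07. Chance alone passes this limit in about 1 in 20 groups.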

How the results depend on the processing

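The large subunit median was above the small in at most 1 animal under each alternative run. The runs that left out an animal, and session 3, in which animal 7 had no array, held 9 animals. Leaving out each animal in turn gave 14 to 16 members higher and 29 to 31 lower, medians of -0.098 to -0.0736 (large) and -0.0199 to -0.0022 (small), and a difference of -0.082 to -0.065. Without the 6 arrays that stood apart, 10 were higher and 13 lower, the small subunit median turned to 0.002, and the difference shrank to -0.035. Members higher were 10 on the arrays of scan session 1 alone and 9 on those of session 3 alone, beside 28.3% and 19.8% of all genes. With only probes read as printed, 10 were higher, 5 lower, and the medians 0.000416 and 0.049; without probes read in reverse, 14 were lower and the small subunit median was 0.0457. With MRPS30 and MRPS18A counted in the large subunit, their place in the ribosome, the small subunit median was 0.0003. These session and strand alternatives were chosen after seeing the data; fewer genes were tested in those on strand, and the cause of the others was not tested. Among called members and the other genes named by the rule, signs reversed for MRPL21 (-0.055) and MRPS27 (0.065) by the mean and by the median of their probes, MRPS27 without probes read in reverse (0.23), MRPL33 (0.0024), MRPS5 (-0.12, called lower) and ICT1 (-0.033) with HFD RNA in Cy5 only, MRPS36 (-0.031) with it in Cy3 only, and LARS2 (-1.25) with probes read as printed. The authors' log2 ratios gave 15 members higher and 29 lower, the processed signals 13 and 31, the slide as a random block 17 and 34, and averaging a gene's probes 13 and 36. A fit within sessions with both arrays of an animal was not run, since no animal had both in 1 session. No paired analysis was possible because the 10 HFD animals form the 1 group and the STD pool has no replicates. P-values cover the spread between HFD animals, not that between STD animals.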
